A study of Mus musculus with 2 samples.

Results

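Ifitm1, Ifitm2, Ifitm3, Ifitm6 and Ifi27l2a, 5 interferon-inducible genes of small membrane proteins, were followed across the cell classes of whole mouse lung. The 5 genes were taken by their symbols from 32286 measured features. They had been selected on their UMI sums by cell class and on their change in monocytes and neutrophils in these same libraries, so the levels and ratios given here are a description and not a test. The lungs came from female BALB/c mice, 9 to 10 weeks old, that had received intravenous injections over 3 weeks. Control media were injected in the group called CM. In the group called TCM, the injected media had been conditioned by 4T1 tumors, which grow from a mouse mammary carcinoma line and were cultured after removal from their hosts. TCM is a model of the factors that a tumor sheds before metastasis, and it delivers them by injection rather than from a tumor that grows in the animal. How many mice were pooled into a library was not stated.

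Each group held 1 library of single-cell RNA sequencing, so no difference between CM and TCM could be set against a spread between mice, and no p-value was computed. The libraries held 31944151 (CM) and 36648719 (TCM) unique molecular identifiers (UMIs, each standing for 1 captured transcript). After the filters of at least 500 UMIs, at least 200 genes and at most 10% mitochondrial UMIs, 7988 CM and 7707 TCM cells were left, with medians of 2085 and 2346 UMIs. Of their barcodes, 93 occurred in both libraries. Cells were put into 18 classes by a marker gate: at least 3 of the 8 markers of a class had to have a UMI, with a lead of at least 2 markers over any other class. The names carry "-like" for that reason, and 2309 CM and 1559 TCM cells stayed without a class. Neutrophil-like cells numbered 239 in CM and 1440 in TCM, which was 2.99% and 18.7% of the cells. Classical monocyte-like cells numbered 56 and 190, and non-classical monocyte-like cells 54 and 30. The gate used none of the 5 genes, nor S100a8 and S100a9, which made up 10831 and 14797 UMIs per 100000 in the neutrophil-like cells and at most 48.3 in the monocyte-like ones. A level is given as CP100k, the UMIs of a gene per 100000 UMIs of the class in that library. Intervals are 95% intervals of the counting error alone.

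The interferon-induced transmembrane (IFITM) proteins sit in the plasma membrane and in endosomes, where they hinder the entry of enveloped viruses. Interferons raise their transcription through STAT and IRF factors, and in many tissues the family is also expressed without infection. IFITM3 is the best studied member and acts on endosomes, IFITM1 stays closer to the cell surface, and IFITM6 is a rodent member known from myeloid cells. Ifi27l2a, also called Isg12, encodes a small hydrophobic protein of the ISG12 family and is likewise induced by interferon. Classical monocytes, which carry Ly6C and CCR2, and neutrophils are the blood myeloid cells that tumors recruit to the lung.

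The 4 Ifitm members lay together within 63.1 kb of chromosome 7 in GRCm38. In GENCODE vM21, Ifitm2 (ENSMUSG00000060591) covered chr7:140954837-140955987 on the minus strand and Ifitm1 (ENSMUSG00000025491) chr7:140967221-140969825 on the plus strand. Ifitm3 (ENSMUSG00000025492) covered chr7:141009586-141010770 and Ifitm6 (ENSMUSG00000059108) chr7:141015699-141017924, both on the minus strand. Ifi27l2a (ENSMUSG00000079017) lay apart, at chr12:103442167-103443680 on the minus strand. All 5 are protein-coding, and the identifiers were those of the deposited feature lists.

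The sequence before a start of each of the 4 neighbours is shown as a description. Whether it bears on their change in the neutrophil-like cells was not tested. The promoter windows, from 250 bases before to 50 bases after the RefSeq start on GRCm38.p6, were searched on both strands for the core of the interferon-stimulated response element, spelled here as GAAA, any 2 bases and GAAA again. It occurred in 3.44% of 32851 mouse promoters. It was found 1 time in the window of Ifitm2, 2 times in that of Ifitm3 and 0 times in those of Ifitm1 and Ifitm6. A second motif, TTCNNNGAA, the core of the gamma-activated site, occurred in 8.30% of promoters and matched 1 time in Ifitm3, where it overlaps the second match of the first motif, and 1 time in Ifitm6. The lines below give 150 bases before an annotated start of transcription of each gene, 5′ to 3′ on its own strand. Their positions overlap no annotated exon. Those of Ifitm1 and Ifitm6 lie in an intron of a longer annotated transcript, whose own start is further upstream. The windows did not reach these outer starts, so the sequence before them was not searched for either motif. Capitals mark the response element core, and a further line gives the first 30 bases of Ifitm3 from its RefSeq start, within its first exon, which hold both of its matches. The other 3 lines have no capitals because these letters do not occur in them. A match is a stretch of letters, not evidence that a factor binds there.
Ifitm1, chr7:140967878-140968027, plus strand: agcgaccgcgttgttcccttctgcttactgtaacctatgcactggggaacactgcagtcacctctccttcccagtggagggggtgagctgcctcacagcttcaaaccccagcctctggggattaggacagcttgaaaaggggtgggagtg
Ifitm2, chr7:140955988-140956137, minus strand: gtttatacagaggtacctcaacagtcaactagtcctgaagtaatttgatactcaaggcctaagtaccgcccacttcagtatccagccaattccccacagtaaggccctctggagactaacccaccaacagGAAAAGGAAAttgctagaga
Ifitm3, chr7:141010771-141010920, minus strand: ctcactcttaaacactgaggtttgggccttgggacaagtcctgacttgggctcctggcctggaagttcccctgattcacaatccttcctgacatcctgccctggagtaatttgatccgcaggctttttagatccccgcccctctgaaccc
Ifitm3, chr7:141010715-141010744, minus strand: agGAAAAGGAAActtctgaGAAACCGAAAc
Ifitm6, chr7:141016909-141017058, minus strand: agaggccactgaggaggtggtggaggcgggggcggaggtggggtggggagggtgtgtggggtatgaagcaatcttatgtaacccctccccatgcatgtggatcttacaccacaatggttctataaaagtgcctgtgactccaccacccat

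The family is also alike within its transcripts, which bears on how reads were assigned. Of all 50-base words in the annotated transcripts, 1.42% of those of Ifitm1, 3.30% of those of Ifitm2 and 5.56% of those of Ifitm3 also occurred in another member, against 0% of those of Ifitm6. Of the Ifi27l2a words, 0.483% occurred in Ifi27l2b. Counting all annotated genes, 48.5% of the Ifitm2 words occurred elsewhere too, mostly in genes with no row in the matrices, among them Gm45717, which overlaps it. Reads on such stretches could not be counted for a gene with no row. Among genes with a row, only Ifitm3 shared words with Ifitm2, the 3.30% given above. Whether reads on shared stretches were dropped was not tested, and the level of Ifitm2 is uncertain to that extent.

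Ifitm3, which restricts viruses in endosomes, had its highest levels in monocyte-like cells. In CM it reached 652 CP100k in non-classical (1019 UMIs, interval 612 to 693) and 620 CP100k in classical monocyte-like cells (1735 UMIs, 591 to 650), whose intervals overlapped. In TCM the levels were 614 CP100k (458 UMIs) and 668 CP100k (6684 UMIs), also with overlapping intervals. Endothelial-like cells came next among the larger classes, at 339 CP100k in CM (19866 UMIs) and 361 in TCM (24198 UMIs). Within the endothelium, aerocyte capillary-like cells were low, at 99.9 and 91.1 CP100k. General capillary-like cells had 367 and 402, and large vessel-like cells 408 and 427. Fibroblast-like (225 and 224), mesothelial-like (244 and 367) and mural-like cells (172 and 148) were in the same range, whereas alveolar macrophage-like cells had 5.87 and 4.60 CP100k. In both libraries Ifitm3 was thus found in monocyte-like, vascular and stromal cells.

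Ifitm2, the close neighbour of Ifitm1, was highest in neutrophil-like cells, at 293 CP100k in CM (1048 UMIs, 276 to 312) and 466 in TCM (11833 UMIs, 457 to 474). In classical monocyte-like cells it had 241 and 273 CP100k, and in non-classical ones 236 and 347. Classical and non-classical cells did not differ beyond their intervals in CM. Endothelial-like (171 and 191), fibroblast-like (154 and 164), mesothelial-like (120.05 and 119) and mural-like cells (103 and 84.2) followed. Ifitm2 and Ifitm3 thus shared the same wide pattern, but the order of neutrophil-like and monocyte-like cells was turned around between them.

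Ifitm1, the cell surface member, had another pattern. Its highest level was in basophil or mast cell-like cells, which were few: 381 CP100k in 16 CM cells (249 UMIs, 335 to 431) and 384 in 15 TCM cells (153 UMIs, 325 to 450). A UMI of Ifitm1 was found in 13 cells of this class in each library. Mural-like cells, the smooth muscle cells and pericytes of vessels, had 96.8 and 84.7 CP100k. Neutrophil-like cells had 56.8 CP100k in CM, which did not differ beyond its interval from the 57.5 of ciliated-like cells. In TCM they had 284 CP100k and stood second of all classes. Endothelial-like cells, where Ifitm2 and Ifitm3 were found in most cells, had 7.10 and 7.05 CP100k. Monocyte-like cells were low, at 2.14 and 16.3 CP100k for classical cells.

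Ifitm6, the myeloid member, was the most restricted. Classical monocyte-like cells had 67.2 CP100k in CM (188 UMIs, 57.9 to 77.5) and 94.0 in TCM (941 UMIs, 88.1 to 100.2). Non-classical cells had 65.3 and 61.7, and neutrophil-like cells 18.5 and 60.5. In TCM the non-classical and neutrophil-like cells did not differ beyond their intervals. The other 15 classes had at most 3.26 CP100k. Of the UMIs of Ifitm6 in all cells, classical monocyte-like cells held 38.7% in CM and 32.2% in TCM, and non-classical ones 21.0% and 1.57%. In the 559 T cell-like cells of CM 0 UMIs were found, which allows a level of up to 0.187 CP100k.

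Ifi27l2a was highest in classical monocyte-like cells, at 349 CP100k in CM (975 UMIs, 327 to 371) and 293 in TCM (2931 UMIs, 282 to 304). Non-classical cells followed with 255 and 219 CP100k. Neutrophil-like cells had 163 and 120.5, interstitial macrophage-like cells 118 and 86.7, and mesothelial-like cells 115 and 187. Unlike the Ifitm members it was also found in lymphocytes, at 85.9 and 114 CP100k in T cell-like and 59.6 and 64.9 in B cell-like cells, but at 1.64 and 3.35 in NK cell-like cells. Among T cell-like cells, those with a UMI of Cd4 and none of Cd8a or Cd8b1 had 138 and 171 CP100k, and those with the reverse 56.6 and 38.1. Without the 10 highest cells of each library, T cell-like cells had 67.2 and 66.5 CP100k. Endothelial-like cells, rich in Ifitm3, had 7.19 and 5.69 CP100k. The plot of levels by class shows the 5 patterns side by side.

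**Figure D1:**
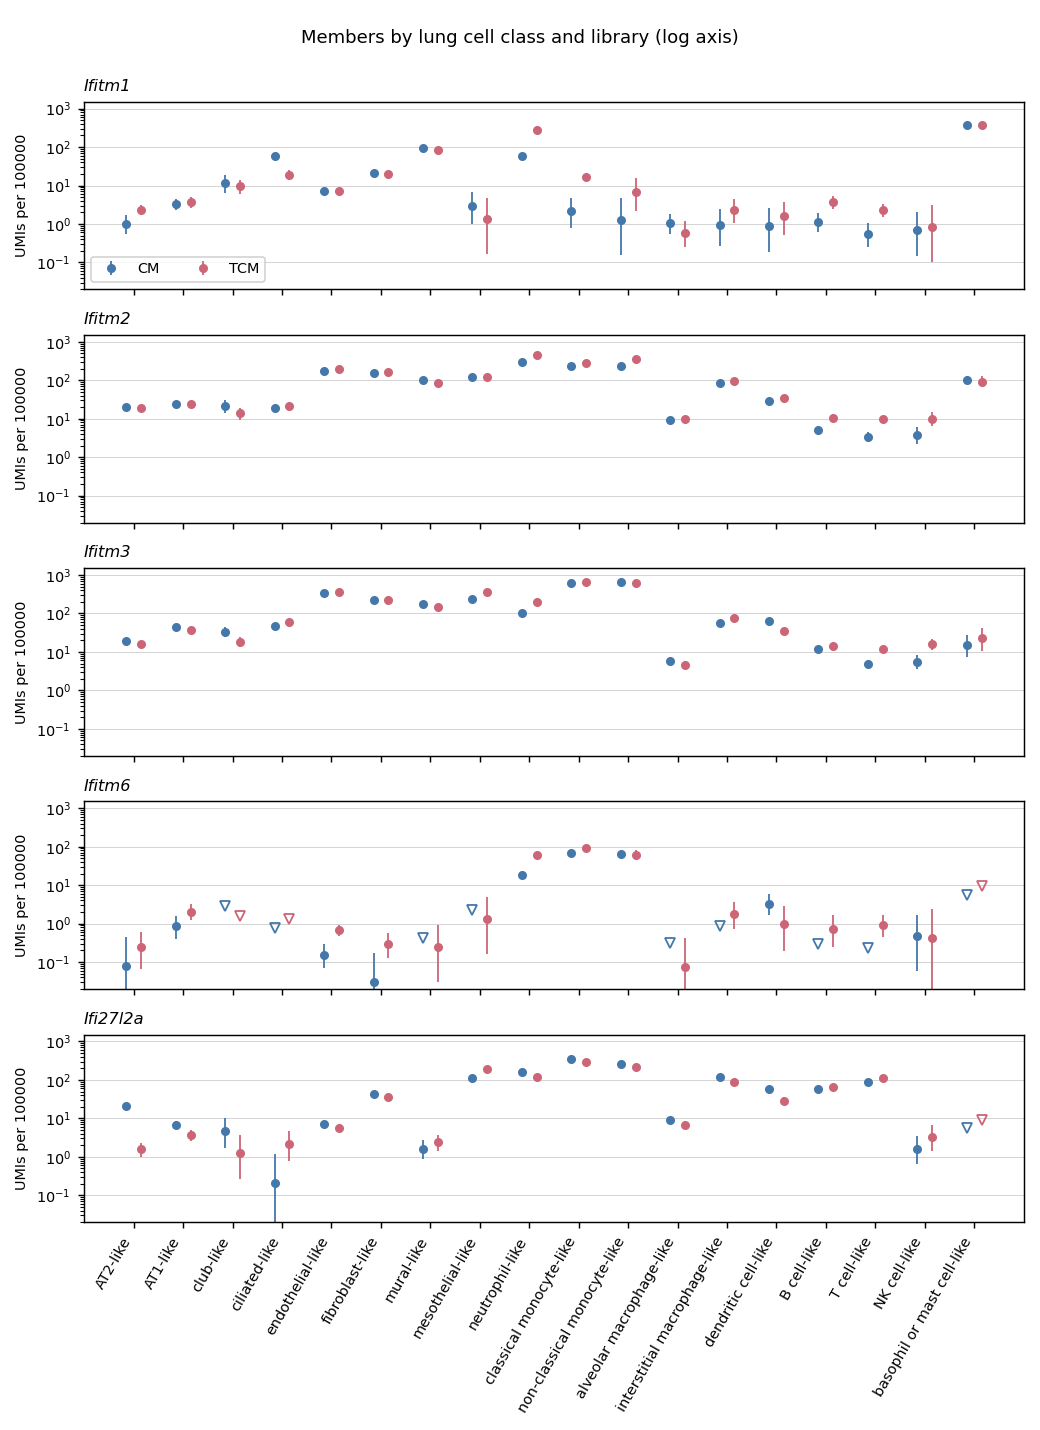
Level of each gene (UMIs per 100000 UMIs of the class, log axis) in 18 cell classes of the CM and TCM libraries. Points are summed UMIs with exact Poisson 95% intervals, some shorter than the point, and open triangles are upper interval bounds where no UMI was found. Ifitm1 stood highest in basophil or mast cell-like cells, and Ifitm6 was above 10 in the monocyte-like and neutrophil-like cells and at most 3.26 in the other 15 classes.

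In neutrophil-like cells, TCM and CM differed most for Ifitm1 and Ifitm6. Ifitm1 had 203 UMIs in CM and 7206 in TCM, and its level was 4.99-fold higher in TCM (log2 ratio 2.32, interval 2.12 to 2.53). Ifitm6 had 66 and 1537 UMIs, 3.27-fold higher (1.71, 1.36 to 2.09). Ifitm3 had 376 and 5027 UMIs, 105 and 198 CP100k, with a log2 ratio of 0.91 (0.76 to 1.07), just short of the 2-fold limit. Ifitm2 was 1.59-fold higher (0.67, 0.58 to 0.76). Ifi27l2a went the other way, with 582 and 3061 UMIs and a level 1.35-fold lower in TCM (-0.44, -0.56 to -0.30). So 2 of the 5 members were at least 2-fold higher and 0 were at least 2-fold lower. Over all 6613 genes with at least 20 UMIs in these cells, 9.44% were at least 2-fold higher and 11.1% at least 2-fold lower. The median log2 ratio of all these genes was -0.15, and relative to it the members stood at 2.47 for Ifitm1, 1.87 for Ifitm6, 1.07 for Ifitm3, 0.82 for Ifitm2 and -0.28 for Ifi27l2a. Summed over the 4 Ifitm members, the level was 474 CP100k in CM and 1008 in TCM.

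The shares of cells with a UMI went in the same directions. With each cell thinned to 500 UMIs, so that depth was equal, Ifitm1 was found in 21.3% of cells in CM (interval 16.3 to 27.1) and in 53.1% in TCM (50.4 to 55.7). Ifitm6 was found in 4.18% and 17.2%, Ifitm3 in 35.1% and 51.9%, and Ifitm2 in 68.2% and 81.2%. Ifi27l2a was found in 32.2% and 27.2%, with overlapping intervals. Without thinning, the shares were 28.5% and 70.1% for Ifitm1 and 9.62% and 34.4% for Ifitm6, at medians of 1237 and 1578.5 UMIs per cell. T cell-like cells, where Ifitm1 had 0.560 and 2.30 CP100k, gave 0.358% and 1.20% after thinning at medians of 2614 and 2527 UMIs. At least 3 UMIs of Ifitm1 per thinned cell were seen in 5.44% of cells in CM and 22.3% in TCM. At least 2 of the 4 Ifitm members were detected in 39.3% of cells in CM and 72.2% in TCM, and none of them in 18.8% and 4.72%.

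**Figure D2:**
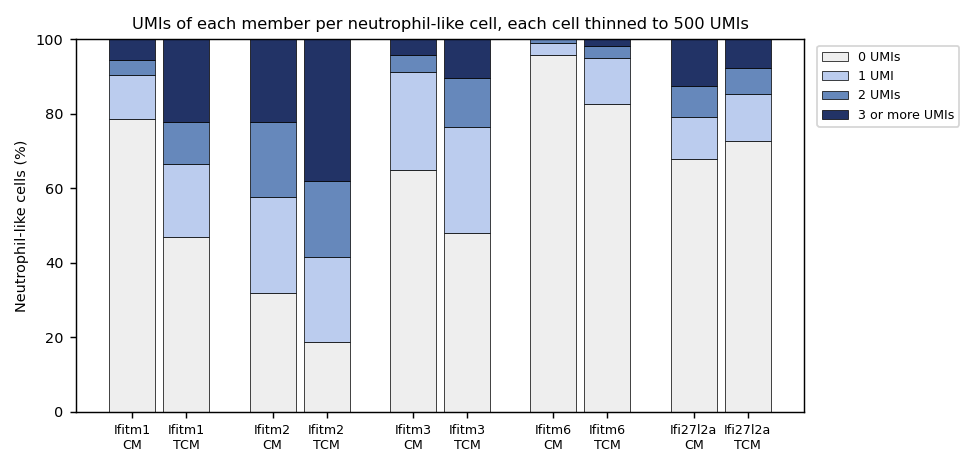
Share of neutrophil-like cells (%, 239 CM and 1440 TCM cells) with 0, 1, 2 or at least 3 UMIs of each gene after each cell was thinned to 500 UMIs. The part with 0 UMIs of Ifitm1 was 78.7% in CM and 46.9% in TCM, and for Ifi27l2a it was 67.8% and 72.8%.

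The Ifitm6 and Ifitm1 values of the CM neutrophil-like cells rested on few cells. The 10 cells with most UMIs held 78.8% of the Ifitm6 and 43.8% of the Ifitm1 UMIs in CM, against 11.5% and 5.68% in TCM. Without the 10 highest cells of each library the log2 ratio was 3.64 for Ifitm6, 2.98 for Ifitm1, 1.30 for Ifitm3, 0.78 for Ifitm2 and -0.08 for Ifi27l2a. Without these cells the interval of Ifi27l2a included no difference (-0.23 to 0.08), whereas the 4 Ifitm differences were larger. But 10 cells are a much larger part of the 239 CM cells than of the 1440 TCM cells. Leaving them out lowers the CM level more by itself, so these shares and ratios are not like for like between the libraries.

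Neutrophils that still carry transcripts of secondary granules (Camp, Ltf or Ngp) are young cells close to their release from bone marrow. A UMI of at least 1 of these genes was found in 19 neutrophil-like cells of CM and 63 of TCM. Ifitm6 was concentrated in them in CM, at 100.03 CP100k against 5.21 in the 220 other cells. In TCM it had 153 CP100k in the granule gene cells and 54.1 in the other 1377. Its log2 ratio was 0.61 (0.17 to 1.08) with the granule genes and 3.38 (2.67 to 4.19) without them. Ifitm1 was higher in TCM in both, at 26.0 against 227 and 61.8 against 288 CP100k. Ifi27l2a was higher in TCM among granule gene cells (46.0 and 93.3 CP100k) and lower among the others (182 and 122). Camp, Ltf and Ngp themselves had 926, 220 and 1340 UMIs in the CM cells and 41, 11 and 279 in the TCM cells. By definition these UMIs all lay in the granule gene cells, 19 in CM and 63 in TCM. A granule gene cell thus held far more of them in CM, and the ratios within that part compare unlike cells. These 3 transcripts were lower in TCM, whereas Lcn2 and Mmp8, also genes of immature neutrophils, had 492 and 107 UMIs in CM and 7287 and 1599 in TCM and were higher (1.06 and 1.07). Their part in the members' result was not tested.

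The differences were also present among cells of like depth. In neutrophil-like cells with 500 to under 1000 UMIs, 1000 to under 2000 and at least 2000, Ifitm1 had 57.0, 69.8 and 35.8 CP100k in CM and 236, 349 and 239.6 in TCM. Ifi27l2a had 154, 194 and 118 CP100k in CM and 97.8, 153 and 98.9 in TCM. Ifitm6 had 8.63, 4.87 and 45.3 CP100k in CM and 27.3, 39.1 and 83.7 in TCM. All 4 Ifitm members were higher in TCM, and Ifi27l2a lower, within each of the 3 depth ranges.

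**Figure D3:**
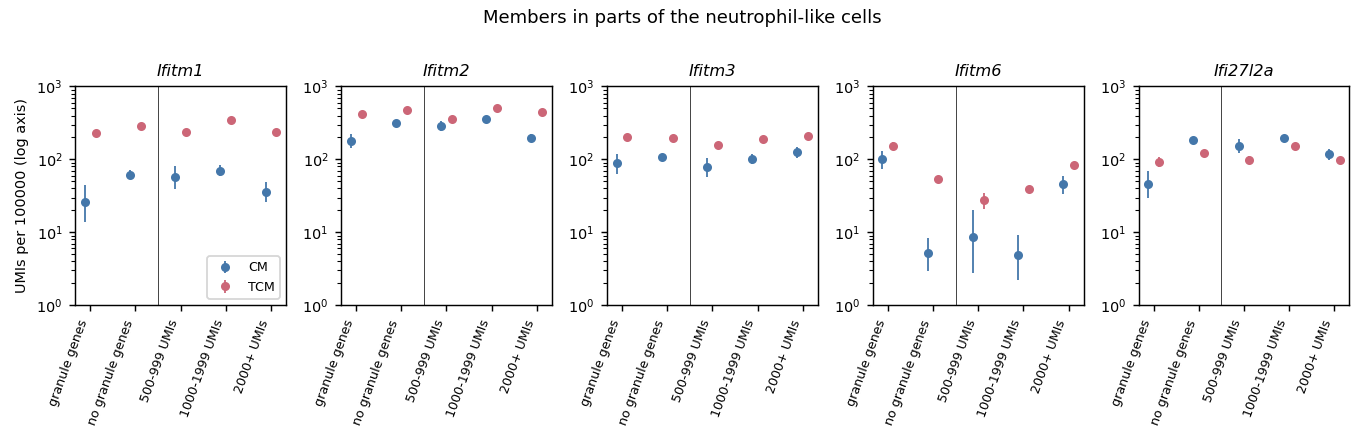
Level of each gene (UMIs per 100000, log axis, exact Poisson 95% intervals) in parts of the neutrophil-like cells of CM and TCM: cells with or without a UMI of Camp, Ltf or Ngp, and cells in 3 ranges of total UMIs. Ifitm1 was higher in TCM in all 5 parts, and Ifi27l2a was lower in all but the granule gene cells. The granule gene cells held more UMIs of Camp, Ltf and Ngp per cell in CM than in TCM.

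In classical monocyte-like cells the abundant members were close between the libraries. Ifitm3 differed by a log2 ratio of 0.11 (0.03 to 0.18), Ifitm2 by 0.18 (0.06 to 0.31) and Ifi27l2a by -0.25 (-0.36 to -0.15). Ifitm6 was 1.40-fold higher in TCM (0.48, 0.26 to 0.72). Ifitm1 had 6 UMIs in 56 CM cells and 163 UMIs in 190 TCM cells, a 7.59-fold higher level (2.92, 1.77 to 4.39). Of the 5 members, 1 was thus at least 2-fold higher and 0 at least 2-fold lower. Over the 5901 genes with at least 20 UMIs in these cells, 7.24% were at least 2-fold higher and 4.46% at least 2-fold lower.

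Some neutrophil transcripts were also higher in TCM in the classical monocyte-like cells. The 8 neutrophil markers had a summed level of 34.3 CP100k in CM and 45.1 in TCM, with 5 and 7 of the 8 detected, and 64.3% and 78.4% of the cells had a UMI of at least 1. S100a8 had 5.72 and 30.4 CP100k. In neutrophil-like cells the marker sums were 1448 and 2185 CP100k, and S100a8 had 3954 and 5780. Among cells with no UMI of a neutrophil marker, 20 in CM and 41 in TCM, Ifitm1 had 3 and 14 UMIs (1.34, -0.50 to 3.78) and Ifitm6 56 and 111 (0.10, -0.38 to 0.59). The Ifitm1 sum there was under the 20 UMIs set for a call. With each cell thinned to 500 UMIs, Ifitm1 was found in 1.79% of cells in CM and 5.26% in TCM, with overlapping intervals. Whether the Ifitm1 UMIs in the other cells came from the monocytes or from neutrophil RNA was not tested.

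Non-classical monocytes patrol the vessel wall. In non-classical monocyte-like cells, 0 of the 4 members with at least 20 UMIs were past 2-fold in either direction. The background was 4.31% of 1786 genes at least 2-fold higher and 5.82% at least 2-fold lower. Ifitm2 had 369 UMIs in CM and 259 in TCM and a log2 ratio of 0.56 (0.32 to 0.79). Ifitm3 had 1019 and 458 UMIs (-0.09, -0.25 to 0.07), Ifitm6 102 and 46 (-0.08, -0.62 to 0.44) and Ifi27l2a 398 and 163 (-0.22, -0.49 to 0.05). The intervals of the last 3 included no difference, and they do not show that the levels were alike. Ifitm1 was nearly absent, with 2 and 5 UMIs. For Ifi27l2a, the 10 highest cells held 63.1% of its UMIs in CM and 83.4% in TCM, and without them its log2 ratio was -1.12 (-1.76 to -0.52). These 10 cells were a larger part of the 30 TCM cells than of the 54 CM cells. Leaving them out lowers the TCM level more by itself, so that ratio is not like for like. The neutrophil markers summed to 18.6 CP100k in CM and 33.5 in TCM, with 3 and 6 of 8 detected. Among the 35 and 13 cells without them, the ratios were 0.86 for Ifitm2 and -0.67 for Ifi27l2a.

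**Figure D4:**
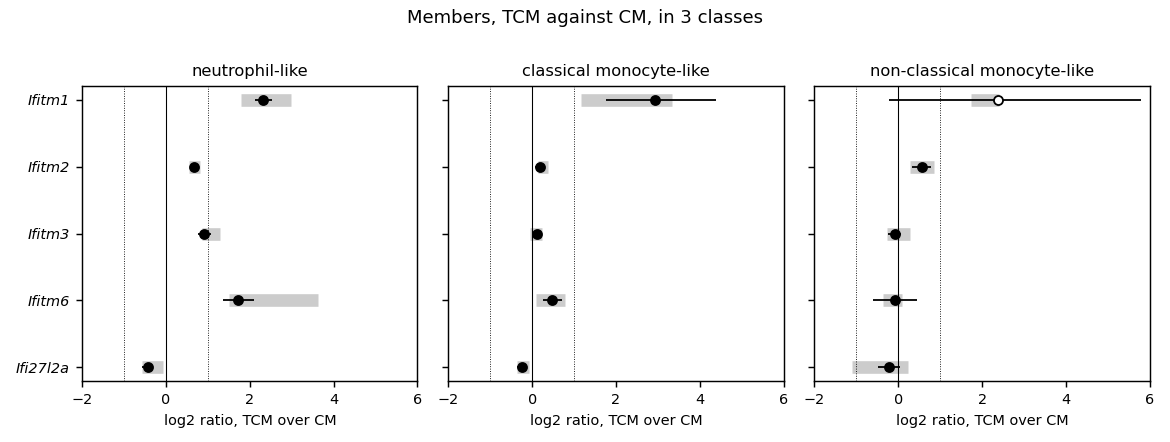
Log2 ratio of TCM over CM for each gene in 3 cell classes. Points with bars are the ratios with their 95% counting intervals, the open point had fewer than 20 UMIs, grey bars span the values under the alternative settings, and dotted lines mark 2-fold. In neutrophil-like cells Ifitm1 (2.32) and Ifitm6 (1.71) were past 2-fold and Ifi27l2a lay at -0.44.

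With the numbers of cells and the levels together, the place of the transcripts in the lung differed between the libraries. Neutrophil-like cells held 5.35% of all Ifitm1 UMIs of the CM cells and 65.0% of those of the TCM cells. For Ifitm6 they held 13.6% and 52.6%, for Ifitm2 4.18% and 28.7%, for Ifi27l2a 6.20% and 25.7%, and for Ifitm3 0.861% and 9.04%. Over all cells, the level of Ifitm1 was 14.6 CP100k in CM and 41.2 in TCM, and that of Ifitm3 was 169 and 207.

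Outside the myeloid cells, the abundant Ifitm members differed by less than 1.5-fold in endothelial-like, fibroblast-like and mural-like cells. In endothelial-like cells the log2 ratios were 0.09 for Ifitm3 (0.06 to 0.12) and 0.16 for Ifitm2 (0.12 to 0.20). In fibroblast-like cells they were -0.01 (-0.06 to 0.04) and 0.09 (0.03 to 0.15). Ifi27l2a was lower in TCM in these classes too, at -0.34 in endothelial-like (-0.54 to -0.13) and -0.33 in fibroblast-like cells (-0.45 to -0.21). It had -0.45 (-0.65 to -0.25) in interstitial macrophage-like cells. In T cell-like cells it was higher (0.40, 0.29 to 0.52), as in the mesothelial-like cells below. In mural-like cells Ifitm1 had -0.19 (-0.34 to -0.04), and in basophil or mast cell-like cells 0.01 (-0.29 to 0.31). Mesothelial-like cells, of which there were 24 in CM and 23 in TCM, showed more. Ifitm3 had 408 and 551 UMIs there and a log2 ratio of 0.59 (0.40 to 0.78), which was -0.18 (-0.73 to 0.38) without the 10 highest cells of each library. Ifi27l2a had 192 and 280 UMIs and a ratio of 0.70 (0.43 to 0.98), and without those cells 5 and 29 UMIs were left (2.72, 1.34 to 4.45). Differences in ciliated-like and AT2-like cells also rested on few cells. In ciliated-like cells Ifitm1 had 271 and 54 UMIs, of which 10 cells held 93.4% in CM and 87.0% in TCM. In AT2-like cells, the surfactant cells of the alveolus, the Ifi27l2a sum was 264 UMIs for CM and 26 for TCM, and the level was 13.3-fold lower in TCM. Of the CM sum, 93.9% lay in 10 cells and 148 UMIs in 1 cell. Without the 10 highest cells of each library, 16 and 6 UMIs were left, and the log2 ratio was -1.86 (-3.50 to -0.44).

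In lymphocyte-like cells the Ifitm levels were near those of free RNA, the RNA from broken cells that droplets take up. Its share of UMIs, estimated from haemoglobin and club cell secretory genes, was 4.34% in CM and 10.0% in TCM for T cell-like cells. At that share, free RNA alone would give 94.9% and 109% of the Ifitm2 UMIs found there, and 107% and 130% of the Ifitm3 UMIs. The Ifitm2 level of T cell-like cells, 3.36 CP100k in CM and 9.74 in TCM, was thus at that of the background, and whether T cells themselves differed was not tested. For Ifi27l2a in the same cells, free RNA would give 1.22% and 2.09% of the UMIs. In neutrophil-like cells it would give 4.57% and 1.43% of the Ifitm1 UMIs, 0.763% and 1.93% of those of Ifitm6 and 16.4% and 11.6% of those of Ifitm3.

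Among 5 relatives, 3 were nearly undetected in these lungs. Ifitm5, a bone gene, had 13 UMIs in all CM cells and 23 in all TCM cells, Ifitm7 had 1 and 1, and Ifi27l2b had 4 and 1. Ifitm10 had 897 and 930 UMIs and its highest level in NK cell-like cells, at 28.0 and 26.4 CP100k. Ifi27, the neighbour of Ifi27l2a on chromosome 12, had 5377 and 5384 UMIs. It reached 53.8 and 52.0 CP100k in mesothelial-like cells and 41.1 and 44.4 in AT1-like cells, against 0.715 and 2.80 (2 and 28 UMIs) in classical monocyte-like cells, where Ifi27l2a was highest. In neutrophil-like cells Ifi27 had 24.6 and 20.7 CP100k.

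The wider interferon pathway was read from lists of its genes, from each of which the 2 highest and 2 lowest log2 ratios among genes with at least 50 UMIs are named. In neutrophil-like cells, 9.44% of all genes with at least 20 UMIs were at least 2-fold higher in TCM and 11.1% at least 2-fold lower. Of 31 type I interferon-stimulated genes with a row, 25 had at least 20 UMIs. Their median log2 ratio was -0.28 against -0.15 for all genes, and 1 was at least 2-fold higher and 2 at least 2-fold lower. Trim30a, a regulator of Toll-like receptor signalling, was the higher one at 1.65 (38 and 849 UMIs, 1.18 to 2.16), followed by the antiviral synthetase Oas2 at 0.92. Rsad2, which encodes viperin, had 122 and 340 UMIs (-1.35, -1.65 to -1.04), and Ifit3b had -1.35 (-2.13 to -0.51). Isg15, the ubiquitin-like modifier, had 876 and 5131 UMIs and a log2 ratio of -0.28 and is named after its value was seen.

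Of 16 genes induced by interferon gamma, 12 had at least 20 UMIs in the neutrophil-like cells, with a median of 0.35. Of these, 4 were at least 2-fold higher and 0 at least 2-fold lower, against 9.44% and 11.1% of all genes. Gbp2, a guanylate-binding GTPase, had 34 and 883 UMIs (1.87, 1.38 to 2.41), and Gbp7 had 1.03 (0.37 to 1.76). The others were Gbp3, with 2 and 29 UMIs (1.03, -0.96 to 4.14), and Gbp4, with 1 and 24 (1.75, -0.86 to 7.12). Igtp (-0.58) and Psmb9 (-0.56) were lowest. Of 17 receptors and signalling genes, 15 were counted and 0 were past 2-fold in either direction, with a median of -0.15. Stat2 (0.74, -0.30 to 1.99) and Socs3 (0.60, 0.27 to 0.95), a feedback inhibitor, were highest, and the receptor chains Ifnar1 (-0.44) and Ifngr2 (-0.40) lowest. Of 10 genes of immature neutrophils, 7 were counted, 2 were at least 2-fold higher and 3 at least 2-fold lower. The higher ones were Mmp8, neutrophil collagenase (1.07), and Lcn2, a siderophore-binding protein (1.06). The lower ones were Camp (-7.33), Ltf (-7.15) and Ngp (-5.09).

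In classical monocyte-like cells, 7.24% of all genes with at least 20 UMIs were at least 2-fold higher in TCM and 4.46% at least 2-fold lower. Of the type I interferon-stimulated genes, 26 had at least 20 UMIs, with a median of -0.14 against 0.02 for all genes. Among them, 0 were at least 2-fold higher and 5 at least 2-fold lower. These were Rtp4 (52 and 87 UMIs, -1.10), Rsad2 (-1.49), Cmpk2 (-1.42), Ifit2 (-1.31) and Ddx58 (-1.08), the last 4 with at most 27 UMIs in a library. Ifih1 (0.75) and Ifi209 (0.59) were highest and Parp14 (-0.78) was low as well. Among receptors and signalling genes, 15 were counted and their median was -0.28. Tyk2 (1.05) was past 2-fold higher and Stat2 (-1.49) and Usp18 (-1.32) past 2-fold lower, on fewer than 50 UMIs each. Among genes with more, Socs3 (0.95) and the kinase gene Jak2 (0.81) were highest and the factors Irf9 (-0.65) and Irf7 (-0.64) lowest. Of the interferon gamma-induced genes, 9 were counted, with a median of 0.09. Igtp was past 2-fold higher (1.28, from 3 UMIs in CM). Ifi47 (0.69) and Gbp7 (0.08) were highest and Tap1 (-0.86) and Psmb9 (-0.28) lowest among those with at least 50 UMIs.

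In non-classical monocyte-like cells 4 type I interferon-stimulated genes were counted, with a median of -0.67. Bst2, which encodes tetherin (48 and 8 UMIs, -1.52), and Epsti1 (-1.25) were at least 2-fold lower. Of all genes counted in these cells, 4.31% were at least 2-fold higher and 5.82% at least 2-fold lower. Ly6e, with 586 and 265 UMIs, had -0.08. Socs3 (1.48, 15 and 20 UMIs) was the 1 of 8 receptors and signalling genes past 2-fold. With at least 50 UMIs, Ifngr1 (0.38) and Ifnar2 (0.23) were highest and Irf7 (-0.96) lowest. The interferon gamma-induced Psmb9 (0.53) and Psmb8 (-0.03) were within 2-fold. Transcripts of the interferons themselves were at the limit of detection: over 8 interferon genes in the 3 classes of both libraries the sum was 1 UMI, of Ifnb1 in a classical monocyte-like cell of CM.

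**Figure D5:**
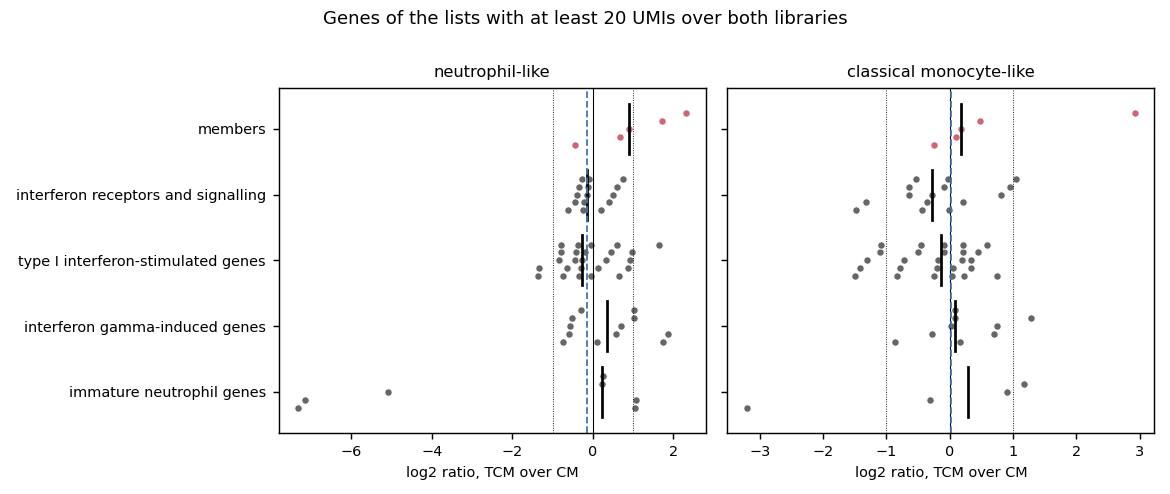
Log2 ratio of TCM over CM for each gene with at least 20 UMIs in neutrophil-like and classical monocyte-like cells, by gene list. Black bars are list medians, the dashed line is the median of all genes, dotted lines mark 2-fold, and a gene with no UMI in CM is drawn at its lower bound. In neutrophil-like cells the median was 0.91 for the 5 members, -0.28 for type I interferon-stimulated genes and 0.35 for interferon gamma-induced genes.

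The genes whose pattern over cell classes was most like that of each member were found by the Pearson correlation of log2(CP100k + 1) over 30 points, which were 15 classes with at least 30 cells in each of the 2 libraries, among 11246 genes. The points share libraries and depth, so the values are a description. For Ifitm2 and Ifitm3 each was the most alike gene of the other (r = 0.93). Next were Tnfrsf1a, a receptor of tumor necrosis factor (0.91), and Marcks (0.85) for Ifitm2, and Palm and Tnfrsf1a (both 0.79) for Ifitm3. Ifitm6 was most like Mefv, the pyrin gene of myeloid cells (0.97), and Gm9733 (0.95). Ifitm1 had weaker likenesses, with Mtus1, Sntb2 and Rnf11 (each 0.78). For Ifi27l2a the nearest genes were Ifngr2, a chain of the interferon gamma receptor (0.78), Kdm7a (0.77) and Rps9 (0.76). Among the members, Ifitm1 and Ifi27l2a were least alike (-0.12).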

How the data were processed

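Lung cells of CM and TCM mice, 1 library each, were measured by droplet sequencing. Per the labels and the study's methods, the authors used a Chromium 5′ kit and Cell Ranger 4 on mm10 (GRCm38.p6), and deposited raw UMI counts per gene and barcode with no cell filter. The members and gene lists were chosen with earlier results of these data known. Droplets with at least 500 UMIs, 200 genes and at most 10% mitochondrial UMIs were kept, and counts were summed by marker-gated class (Python 3.11.15, numpy 2.4.6, scipy 1.17.1, pandas 2.3.3). Sums have exact Poisson, shares Clopper-Pearson and ratios conditional binomial 95% intervals, which cover counting error only. A gene was called at a 2-fold ratio and at least 20 UMIs over both libraries. Named genes were the members, their relatives, and per list and class the 2 highest and 2 lowest ratios of at least 50 UMIs, while others past 2-fold were named after their values were seen. Free RNA came from droplets with at most 50 UMIs. Scrublet marked 2 cells in CM and 0 in TCM and so had not worked, and no doublets were removed. Clusters (scanpy 1.11.5, leidenalg 0.10.2) served as an alternative. The code was tested on simulated counts. A promoter of Ifi27l2a was not used here, and Mx1 and Mx2 were not analysed here. Some genes that the naming rule covers are not reported here.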

Additional observations from a re-analysis of the deposited data

How the results depend on the processing

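With 1 library per group, no spread between mice could be measured, and counting intervals limit the members with few UMIs, above all Ifitm1 in monocyte-like cells. No paired analysis was possible because each group held 1 library. Of the counts of members past 2-fold, that in classical monocyte-like cells was 1 and became 0 with each cell thinned to 500 UMIs, and 0 without cells that have a neutrophil marker, an alternative added after seeing the data. In non-classical monocyte-like cells it was 0 and became 1 without the 10 cells with most UMIs of the member (Ifi27l2a). In neutrophil-like cells it was 2 and became 4 at 1.5-fold. Leaving out 10 cells per library took a larger part of the TCM cells in the non-classical class. In the neutrophil-like and classical monocyte-like classes it took a larger part of the CM cells. That alternative therefore shifts the ratios by itself. The other 54 recomputed counts, those of the class with the highest level included, stayed within 1.5 times, and 0 called values changed sign. Among them, the neutrophil-like count rose from 2 to 3, at that limit, with Ifitm3 also past 2-fold. This was seen with free RNA subtracted, with centring on the median of all genes and without the 10 highest cells. In neutrophil-like cells the log2 ratio over 14 alternatives ranged from 1.79 to 2.98 for Ifitm1, 1.496 to 3.64 for Ifitm6, 0.86 to 1.30 for Ifitm3, 0.56 to 0.82 for Ifitm2 and -0.57 to -0.08 for Ifi27l2a. In classical monocyte-like cells Ifitm1 ranged from 1.18 to 3.34. For the non-classical class the clusters gave no value, since both kinds of monocyte-like cells fell into 1 cluster. The causes were not tested.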
